A study of Mus musculus with 8 samples.

Results

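The 8 genes described here encode the machinery of MHC class II antigen presentation: H2-DMa, H2-DMb1, H2-DMb2, H2-Aa, H2-Ab1, H2-Eb1, Cd74 and Ciita. They were taken by name from the 34837 distinct gene names of a mouse expression array, with every probe of each gene, 9 probes in all. They were selected on measured values: the levels of H2-DMb1 and H2-DMb2 had been seen to be higher in duct cells than in mesoderm, and the other 6 genes were added to see whether theirs were too. The difference between duct cells and mesoderm is therefore given below as a description, with no test.

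The samples were cells of ICR mouse embryos sorted for green fluorescence. One set of cells carried a Hoxb7-GFP reporter, which is active in the nephric (Wolffian) duct, the epithelial tube that later gives rise to the ureteric bud and the collecting ducts of the kidney. They were taken at E8.75 (1 array), E9.5 (a rostral and a caudal array), E10.5 (a rostral and a caudal array) and E11.5 (1 array). From E9.5 on the labels also describe them as negative for Flk1, a receptor of endothelial cells, a gate that the E8.75 label does not state. The cells set against them carried a Wt1-GFP reporter, which marks intermediate mesoderm, at E9.5 (a rostral and a caudal array). Each reporter stands for the cells in which its promoter is active, and the labels do not say whether arrays came from separate animals or pools. The p-values below therefore measure only the spread between these arrays.

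Class II molecules are pairs of an alpha and a beta chain that carry peptides to the cell surface for helper T cells. H2-Aa and H2-Ab1 encode the chains of I-A, and H2-Eb1 encodes the beta chain of I-E. Cd74, the invariant chain, fills the groove of new class II molecules on their way to the endosome, where H2-DM, a pair of H2-DMa with either of the closely related beta chains H2-DMb1 and H2-DMb2, exchanges its remnant for peptide. Ciita, the class II transactivator, switches these genes on together in dendritic cells, macrophages, B cells and thymic epithelium. It does so through the X and Y boxes of their promoters, to which the RFX and NF-Y complexes bind.

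These boxes are shown first. In the search below the H2-DM beta genes shared the letters of both with H2-Eb1, a classical class II gene, and the Y-box letters with H2-Aa. RefSeq promoter windows (GRCm38.p6, from 250 bases before to 50 bases after each start) were given for 5 of the members on chromosome 17. The windows were searched on both strands for the letters AACNGATG of the X box and GATTGG of the Y box, which do not overlap each other. Both motifs were chosen after the sequences had been read. The stretches below run 5′ to 3′ on the gene's strand, with the matched letters in capitals, at chr17:34153089-34153148 (plus strand), chr17:34145118-34145177 (plus), chr17:34305767-34305826 (plus) and chr17:34287853-34287912 (minus).

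H2-DMb1: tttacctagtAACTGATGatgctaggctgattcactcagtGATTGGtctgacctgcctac

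H2-DMb2: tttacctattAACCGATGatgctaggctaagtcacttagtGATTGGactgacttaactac

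H2-Eb1: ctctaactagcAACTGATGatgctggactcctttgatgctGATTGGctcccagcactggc

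H2-Aa: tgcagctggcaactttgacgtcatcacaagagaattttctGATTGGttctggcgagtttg

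H2-DMb1, H2-DMb2 and H2-Eb1 held the X-box letters followed by the Y-box letters, with 22, 22 and 21 bases between them. The X-box letters began 92 bases before the start of H2-DMb1, 121 before that of H2-DMb2 and 89 before that of H2-Eb1. H2-Aa held only the Y-box letters, as did the second of the 2 windows listed for H2-DMa, 199 bases before its start, and the first H2-DMa window held neither motif. Among all 32851 RefSeq promoters, 2.32% held AACNGATG, 16.1% held GATTGG, and 0.03%, which is 10 promoters, held the first followed by the second at a distance of 10 to 40 bases. Besides the 3 members these 10 included H2-Eb2, another class II beta gene of the same region. The rest were BC051142, H2-M10.4, Scgb2b20, Gm35444, Fgd4 and Sf1. Over the whole window H2-DMb1 and H2-DMb2 were identical at 84.2% of 247 aligned bases, against 59.8% of 256 for H2-DMb1 and H2-Eb1. A match of letters is a description and says nothing of binding in these cells. Other forms of the boxes were not searched for, so a window without these letters may still hold a box.

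Each level is the log2 ratio of a probe's processed signal to its array's 75th percentile, so a level of 0 equals that percentile, and levels of different probes are not set against each other. A probe counted as measured on an array where the scanner software flagged it well above background. This held for between 60.6% and 69.2% of probes on an array. Of the probes kept, 51.2% were measured on all 8 arrays and 81.9% on at least 1, and 3 of the 9 class II probes were measured on all 8. The dimmest probe that was well above background lay between -4.70 and -3.89 over the arrays. Wt1 had levels of -0.15 and -1.86 in the E9.5 duct arrays, against 4.14 and 4.09 in the Wt1-GFP arrays, and Pax2, a duct transcription factor, had 5.23 and 5.44 in the duct arrays, against 2.78 and 1.39 in the Wt1-GFP arrays. Kdr, which encodes Flk1, was measured on all 8 arrays, at 1.52 to 2.0 in the duct arrays labelled negative for Flk1 and 4.21 at E8.75, against 2.16 and 2.17 in the Wt1-GFP arrays. Both E9.5 duct arrays lay in the first row of the slide and both Wt1-GFP arrays in the second, which also held the E10.5 caudal and E11.5 duct arrays.

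H2-DMb1 and H2-DMb2 were higher in every duct array from E9.5 on than in the E8.75 and Wt1-GFP arrays, whereas for every other member probe these arrays overlapped. H2-DMb1 was not well above background in the E8.75 array, with a level of -6.27. It had -0.39 and -0.26 in the E9.5 rostral and caudal arrays, 1.62 and 0.98 in the E10.5 arrays, and 1.61 in the E11.5 array. In the Wt1-GFP arrays it was again not well above background, at -6.08 and -6.25. The 5 later duct arrays thus stood apart from the other 3 arrays, with a gap of 5.69 between the lowest of the first and the highest of the second.

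The order of the group levels of H2-DMb1 was E11.5 (1.61), E10.5 (1.30 ± 0.45, SD, n = 2) and E9.5 (-0.33 ± 0.09, n = 2), followed by the Wt1-GFP cells and the E8.75 duct, which have no order because both lay below detection. The E11.5 value lay within the range of the E10.5 arrays. The fitted difference between duct and Wt1-GFP cells at E9.5 was 5.84 (SE 0.30). Since neither Wt1-GFP array measured the gene, the fold is a bound, and H2-DMb1 was at least 13.0-fold higher in the duct cells. The bound takes the dimmest well-above-background level of each array in place of the unmeasured one. Within the second slide row, the E10.5 caudal and E11.5 duct arrays had levels of 0.98 and 1.61, against -6.08 and -6.25 in the Wt1-GFP arrays.

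H2-DMb2 was measured in the E8.75 array, at a level of -1.66. It had 3.00 and 2.84 in the E9.5 rostral and caudal arrays, 4.22 and 3.61 in the E10.5 arrays and 3.29 in the E11.5 array. Of the Wt1-GFP arrays, the rostral one did not measure it (-6.11) and the caudal one did (-2.92). The 5 later duct arrays again stood apart from the other 3, with a gap of 4.50.

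The group levels of H2-DMb2 ran E10.5 (3.92 ± 0.43, SD, n = 2), E11.5 (3.29), E9.5 (2.92 ± 0.12, n = 2), E8.75 (-1.66) and Wt1-GFP (-4.52 ± 2.26, n = 2). The E11.5 array lay below both E10.5 arrays, and its difference from their mean, -0.62, was larger than their SD. The fitted difference between duct and Wt1-GFP cells at E9.5 was 7.43 (SE 1.10), or at least 80.2-fold with the unmeasured Wt1-GFP array at its floor. The size rested on the Wt1-GFP arrays: it was 5.65 without the rostral one and 9.22 without the caudal one. H2-DMb1 and H2-DMb2 correlated at r = 0.934 over the 8 arrays, which share their scaling and their stages, so this is a description.

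**Figure D1:**
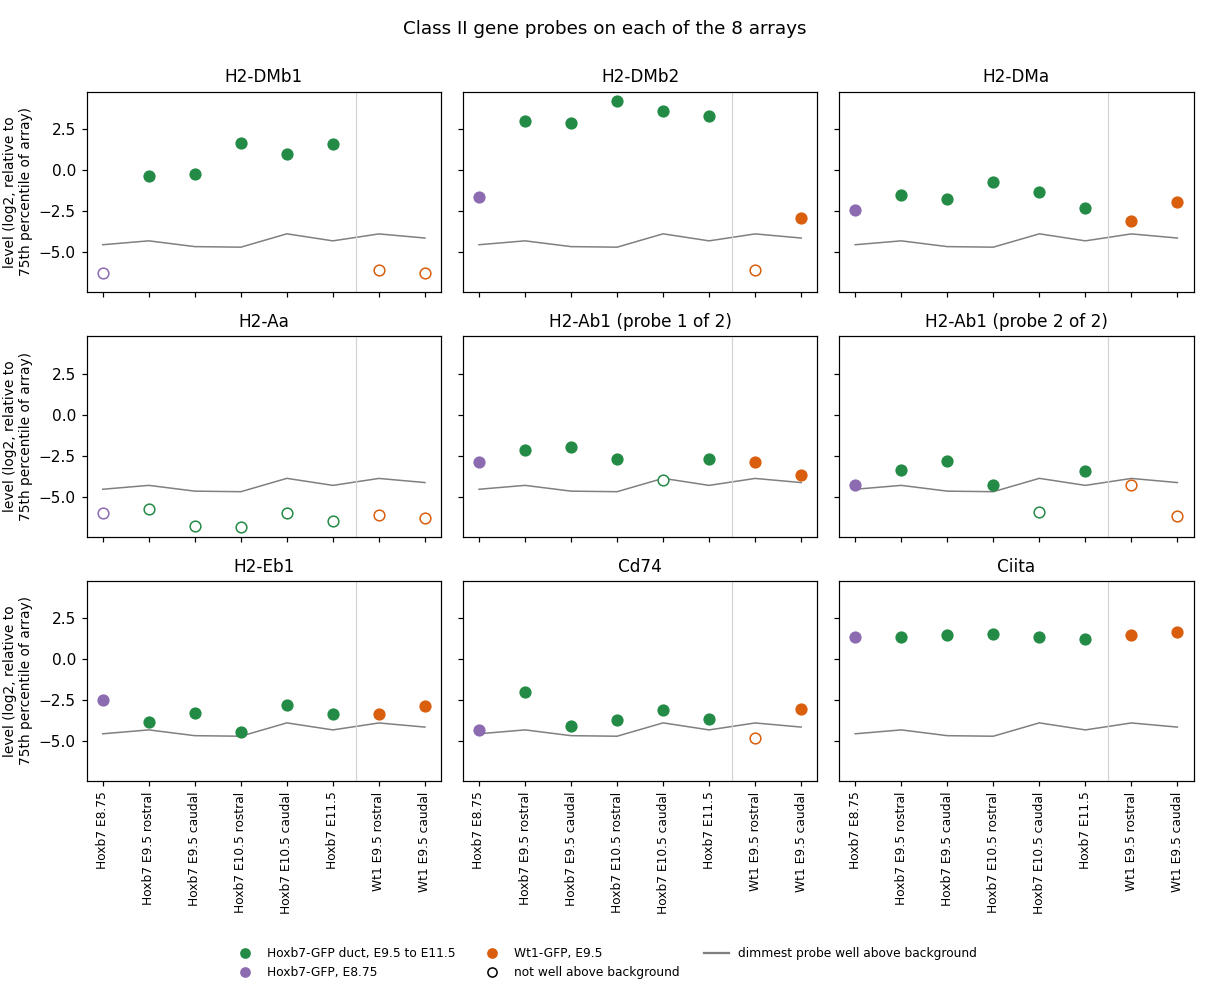
Level (log2 ratio to the array's 75th percentile, vertical axis) of each of the 9 class II probes on the 8 arrays (horizontal axis), with Hoxb7-GFP arrays by stage on the left and Wt1-GFP arrays on the right of each panel. Filled points are well above background, open points are not, and the grey line is the dimmest probe well above background on each array. The H2-DMb1 and H2-DMb2 panels show the later duct arrays far above the rest, H2-Aa is open on all 8 arrays, and Ciita stays between 1.20 and 1.63.

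H2-DMa, the alpha chain that both beta chains need, was measured on all 8 arrays. Its levels were -2.42 at E8.75, -1.54 and -1.78 at E9.5, -0.71 and -1.32 at E10.5 and -2.32 at E11.5, against -3.08 and -1.96 in the Wt1-GFP rostral and caudal arrays. The E9.5 and E10.5 duct arrays lay above both Wt1-GFP arrays, and the E8.75 and E11.5 arrays lay between them. The fitted duct minus Wt1-GFP difference at E9.5 was 0.86 (SE 0.52), and 0.09 to 1.63 without 1 array. With the slide row as a block it was -0.19 (SE 0.96), and every other alternative gave a positive value. That row term rests on the E10.5 arrays, the only group with an array in each row. The SE of that fit is larger than its value, so it cannot decide the direction, and the difference is a description.

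H2-Aa, the alpha chain of I-A, was not well above background on any of the 8 arrays. Its processed signal stayed between 2.21 and 4.43 units, and it was above the 99th percentile of the array's negative control spots on 0 of 8 arrays. The chain that would pair with it, H2-Ab1, had 2 probes. Their sequences share 51 bases and differ within them at a single position, written T51C with positions counted from the 5′ end of the first probe. The differing base is in capitals in the 30 bases below, from probes at chr17:34406296-34406355 and chr17:34406305-34406363 (mm9).

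H2-Ab1 first probe: agattacaaataaacgagacTcagactctg

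H2-Ab1 second probe: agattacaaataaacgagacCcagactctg

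The first H2-Ab1 probe had levels of -2.91 at E8.75, -2.14 and -1.95 at E9.5, -2.73 and -4.00 at E10.5 and -2.72 at E11.5, against -2.87 and -3.66 in the Wt1-GFP arrays. It was measured on 7 arrays, all but the E10.5 caudal one. The second probe was measured on 5 arrays and had levels of -4.30 at E8.75, -3.37 and -2.86 at E9.5, -4.31 and -5.97 at E10.5 and -3.46 at E11.5, against -4.29 and -6.18 in the Wt1-GFP arrays. On both probes the E9.5 duct arrays were the highest and the E10.5 caudal array lay below at least 1 Wt1-GFP array. The fitted differences between duct and Wt1-GFP cells at E9.5 were 1.22 (SE 0.44) and 2.12 (SE 0.72), the second with neither Wt1-GFP array measured and so a bound of at least 1.87-fold. With the slide row as a block they were 0.25 (SE 0.78) and 1.14 (SE 1.53). With normexp background correction they were 0.43 (SE 0.17) and 0.26 (SE 0.16). Without 1 array the first ran from 0.61 to 1.83 and the second from 0.97 to 3.26, the lower value in each case without the E9.5 caudal array and the higher without the rostral one. Because the probes overlap, they are not independent measurements of H2-Ab1.

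H2-Eb1, the beta chain of I-E, was measured on all 8 arrays but exceeded the 99th percentile of the negative control spots on only 4 of them. Its levels were -2.51 at E8.75, -3.83 and -3.31 at E9.5, -4.44 and -2.78 at E10.5 and -3.32 at E11.5, against -3.36 and -2.89 in the Wt1-GFP arrays. The E8.75 array was the highest and the groups overlapped. The H2-Eb1 promoter window held the searched letters of both boxes, as did those of the H2-DM beta genes. Its fitted difference at E9.5 was -0.45 (SE 0.41), and 0.72 (SE 0.51) with the slide row as a block.

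Cd74, whose gene lies on chromosome 18, had levels of -4.35 at E8.75, -2.03 and -4.09 at E9.5, -3.74 and -3.12 at E10.5 and -3.68 at E11.5, against -4.81 (not well above background) and -3.03 in the Wt1-GFP rostral and caudal arrays. The E9.5 rostral array was the highest and the groups overlapped. The fitted difference at E9.5 was 0.86 (SE 1.04), and it was -0.77 without the E9.5 rostral array. Tyrobp, an adaptor of myeloid receptors, was also highest in the E9.5 rostral array, at -1.42, against -4.10 in the caudal one and -5.48 and -6.29 in the Wt1-GFP arrays. Other macrophage and dendritic cell markers went both ways between the E9.5 rostral and caudal arrays. Lower in the rostral array were Laptm5, with -6.63 (not well above background) against -3.93, and Fcer1g, with -3.57 against -2.05. Higher in it were Zbtb46, with -0.66 against -2.52, and Cd14, with -4.10 against -5.41 (not well above background). Leaving out Itgam and Csf1r, 4 of 18 such markers were highest in the E9.5 rostral array and 4 in the E10.5 caudal one. Those of the E9.5 rostral array, Tyrobp, Cd14, Flt3 and Zbtb46, were all measured there. Of those of the E10.5 caudal array only Fcer1g was measured there, and Spi1, Itgax and C1qc were measured on 0 arrays. Whether myeloid cells in the E9.5 rostral sample bear on the Cd74 value was not tested.

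Ciita was the member with the narrowest range, 0.43 over the 8 arrays. Its levels were 1.34 at E8.75, 1.37 and 1.45 at E9.5, 1.55 and 1.37 at E10.5 and 1.20 at E11.5, against 1.46 and 1.63 in the Wt1-GFP arrays, and the fitted difference at E9.5 was -0.13 (SE 0.24). Its only probe, at chr16:10526568-10526627 (mm9), consists of a repeat for most of its length, as its first 30 bases show, with the repeated unit in capitals.

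Ciita probe: gccccatctaatgcAAAACAAAACAAAACg

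The Ciita probe held 8 copies of that unit and was 65.0% adenine. Whether its signal came from Ciita transcripts was not tested, so the values say nothing firm about the transactivator. The array held 4 probes with at least 5 copies, the Ciita probe among them. All 4 were measured on all 8 arrays, against 51.2% of all probes kept.

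At E9.5, 4 of the 8 class II probes measured on some array had a fitted duct minus Wt1-GFP difference of at least 1 on the log2 scale, against 10.1% of the 45582 probes tested, and these were H2-DMb1, H2-DMb2 and both overlapping H2-Ab1 probes. For the second H2-Ab1 probe, which neither Wt1-GFP array measured, the bound was lower, at least 1.87-fold, and the first fell short of a difference of 1 with the slide row as a block. H2-DMb2 was the only class II probe of the 8 with all 6 duct arrays above both Wt1-GFP arrays, against 5.78% of all probes tested. The 5 later duct arrays lay above the E8.75 and both Wt1-GFP arrays for 2 of the 8, H2-DMb1 and H2-DMb2, against 4.85% of all. These counts follow from how the genes were chosen. For the remaining 6 probes the lowest of these 5 arrays lay below the highest of the other 3, with differences of -0.36 (H2-DMa) to -1.94 (H2-Eb1).

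The genes were chosen for higher levels in duct cells than in mesoderm. The comparisons of E9.5 with E8.75 and with E10.5 reuse the E9.5 duct arrays of the comparison above. Their p-values for H2-DMb1 and H2-DMb2 are therefore not free of that choice. The fitted difference of E9.5 minus E8.75 was 5.95 for H2-DMb1 (SE 0.36), at least 18.8-fold over the unmeasured E8.75 array, with a limma adjusted p of 0.23. H2-DMb2 differed by 4.58 (SE 1.34), 24.0-fold, with a limma adjusted p of 0.30. Neither passed the threshold of 0.05, and with the model's 2 residual degrees of freedom no probe on the array did. The share of probes called was 0.0% in this comparison, 6724 probes had an unadjusted p under 0.05 where 2279 are expected by chance, and the lowest adjusted p was 0.23. A fitted E9.5 minus E8.75 difference of at least 1 on the log2 scale was found for 4 of the 8 class II probes, against 14.1% of all tested.

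H2-DMb1, H2-DMb2, Cd74 and the second H2-Ab1 probe made up those 4, the last 2 with fitted differences of 1.29 (SE 1.28) and 1.19 (SE 0.88). H2-Eb1 had -1.06 (SE 0.51), H2-DMa 0.76 (SE 0.64), the first H2-Ab1 probe 0.86 (SE 0.54) and Ciita 0.07 (SE 0.29), with limma adjusted p from 0.42 to 0.94 over these 6 probes. The E8.75 array, which stands alone in its group, also differed in its endothelial markers. All 9 of them were measured on some array, and their summed level was 2.66 to 2.92 in the E9.5 duct arrays, against 5.63 in the E8.75 array. Cdh5, an endothelial cadherin, had -2.0 and -1.16 at E9.5, against 2.70 at E8.75. The summed level of the 9 nephric duct genes was 5.95 to 6.36 at E9.5, against 6.64 at E8.75. Pax2 had 5.23 and 5.44 at E9.5, against 5.78 at E8.75, and Lhx1, another duct transcription factor, had 3.15 and 3.77, against 4.60. Wnt9b and Cdh1, also on that list, ran the other way, and the E8.75 array did not measure them. Fewer duct cells in that sort and less H2-DMb1 RNA per duct cell cannot be told apart, and the part of the endothelial cells in the result was not tested.

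For E10.5 minus E9.5, H2-DMb1 had a difference of 1.62 (SE 0.30) and H2-DMb2 one of 1.0 (SE 1.10), with limma adjusted p of 0.60 and 0.89. Both E10.5 arrays lay above both E9.5 arrays for each gene. The H2-Ab1 probes had -1.32 (SE 0.44) and -2.02 (SE 0.72), each with an adjusted p of 0.68. For E11.5 minus E10.5, the differences of H2-DMb1 and H2-DMb2 were 0.31 (SE 0.36) and -0.62 (SE 1.34), with adjusted p of 0.75 and 0.88, and that of H2-DMa was -1.31 (SE 0.64), with an adjusted p of 0.49. The share of all probes called was 0.0% in each of these comparisons by limma, with 3343 and 5565 probes at an unadjusted p under 0.05.

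No class II probe passed the test of position along the body axis. Over the 3 split groups, rostral minus caudal was 0.22 (SE 0.24) for H2-DMb1 and -0.81 (SE 0.90) for H2-DMb2, and limma adjusted p ran from 0.76 to 0.98 over the 8 probes. For H2-DMb2 the rostral minus caudal difference was larger by 3.57 (SE 0.54) in the duct than in the Wt1-GFP cells at an adjusted p of 0.79, a term fitted with 1 residual degree of freedom. The Wt1-GFP rostral array did not measure H2-DMb2, so this size rests on a background value, and it ran from 1.05 to 4.21 over the alternatives. The shares of all probes called were 0.0% for position and 0.0% for its interaction with the reporter, with 2914 and 2785 probes at an unadjusted p under 0.05.

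The class II region of chromosome 17, from H2-Oa to H2-Ea-ps, held 23 probes on the array, of which 17 were measured on at least 1 array. The duct arrays from E9.5 on all stood above the other 3 arrays for 5 of these 17, against 4.85% of all probes tested. The 5 were H2-DMb2, LOC639316, H2-DMb1, H2-Eb2 and 1 of the 3 H2-Ob probes. H2-DMb1 and H2-DMb2 had been chosen for high duct levels, and the LOC639316 probe matches the start of H2-DMb1, as described below. H2-Eb2 and the H2-Ob probe had gaps of 0.36 and 0.19, against 5.69 for H2-DMb1. Between the H2-DM beta genes and the classical genes lie Psmb9, Tap1, Psmb8 and Tap2, which serve class I presentation. Psmb9 had a fitted duct minus Wt1-GFP difference of 0.89 (SE 0.54) on the probe that was measured. Psmb8, measured on 2 of 8 arrays, had -0.98 (SE 0.65). Tap1, a peptide transporter subunit, was also measured on 2 of 8 arrays and had -0.25 (SE 0.31). Tap2, its partner, had 0.01 (SE 0.28), and Brd2, a chromatin reader on the far side of H2-DMa, had -0.43 (SE 0.24) and -0.32 (SE 0.27) on its 2 probes.

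LOC639316 was singled out after its values were seen. Its probe, at chr17:34290109-34290168 (mm9), was not well above background in the E8.75 array (-6.84). It had levels of -3.16 and -3.25 at E9.5, -2.65 and -3.66 at E10.5 and -2.35 at E11.5, against -6.15 and -6.34 in the Wt1-GFP arrays, neither of which measured it, so that the E9.5 duct level was at least 1.76-fold higher. Its profile followed that of H2-DMb1 over the 8 arrays at r = 0.977. The probe matched the H2-DMb1 promoter window of RefSeq (GRCm38.p6) at 58 of 60 bases, 27 of them before the annotated start and 33 from the start on. The differences were G17A and T46A, with the window's base first and positions counted from the probe's 5′ end. Against the H2-DMb2 window its best match was 41 of 60 bases. The probe thus carries the sequence at the start of H2-DMb1, while the H2-DMb1 probe proper lies at chr17:34297109-34297168 (mm9), and both put the 5 later duct arrays above the other 3.

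**Figure D2:**
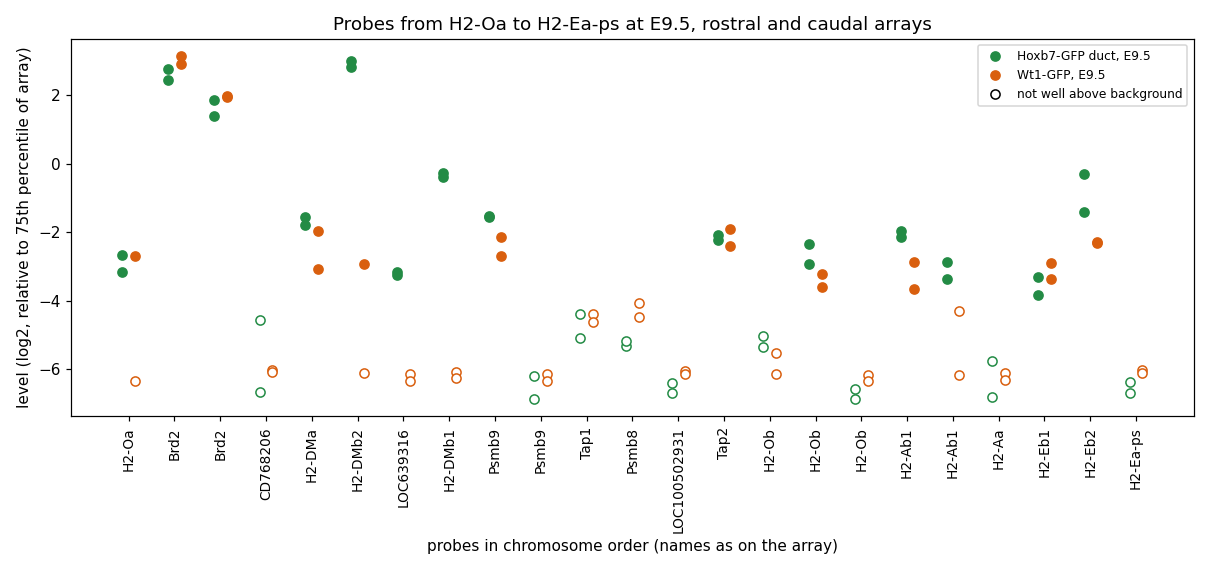
Level (log2 ratio to the array's 75th percentile, vertical axis) of the 23 probes of the class II region in chromosome order (horizontal axis) on the E9.5 arrays. Green points are the Hoxb7-GFP rostral and caudal arrays, orange points the Wt1-GFP ones, and open points are not well above background. H2-DMb2, LOC639316 and H2-DMb1 are the 3 neighbouring probes at which the colours part widely, with open Wt1-GFP points except the caudal one of H2-DMb2.

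By the rule that names the 5 genes with the most similar profile, among 10979 probes with a range of at least 2 and at least 4 measured arrays, H2-DMb1 was closest to Cdh1 (r = 0.995 over 8 arrays), the epithelial cadherin. Also among the 5 were Marveld3 (0.994), a tight junction protein, Pgap1 (0.993), an enzyme of GPI anchors, and Kcnj16 (0.993), a potassium channel subunit. Cdh1, for example, had -6.26 at E8.75 and -2.19 and -2.31 in the E9.5 duct arrays, against -5.68 and -6.05 in the Wt1-GFP arrays, neither of which measured it. Those of H2-DMb2 included Tspan33 (0.993), a tetraspanin, Mal (0.99), a proteolipid of apical transport, Slain1 (0.988), a microtubule end protein, and Gdpd1 (0.987), a phosphodiesterase. Mal had 2.05 and 2.55 in the E9.5 duct arrays, against -5.96 and -3.22 in the Wt1-GFP arrays. For all 8 genes named here the 5 later duct arrays lay above the other 3. The 8 class II members were left out before the ranking, so their absence from it carries no information. Likeness over 8 arrays is a description that follows stage and cell type.

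**Figure D3:**
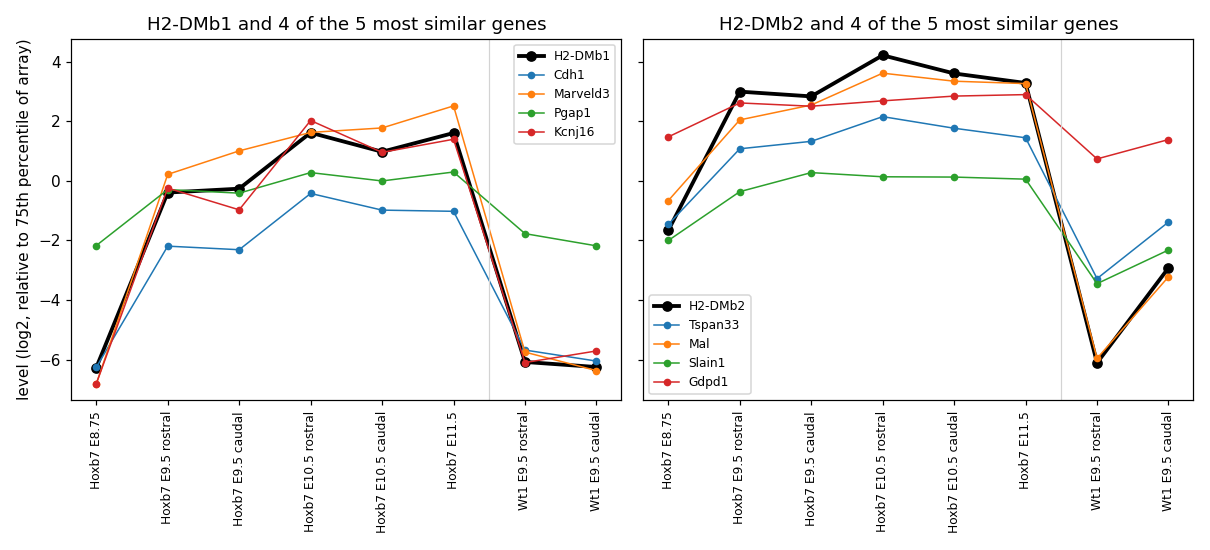
Level (log2 ratio to the array's 75th percentile, vertical axis) over the 8 arrays (horizontal axis) of H2-DMb1 (left, black) and H2-DMb2 (right, black) with 4 of the 5 most similar genes of each (coloured). Lines only join the points of a gene. The H2-DMb1 group lies low at E8.75 and in both Wt1-GFP arrays, and the H2-DMb2 group is lowest in the Wt1-GFP rostral array.

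Genes that work with class II molecules showed no shift as a group. Of 17 partners and regulators on the array 15 were tested, 7 with a higher and 8 with a lower fitted value in E9.5 duct than in Wt1-GFP cells. Their median difference was -0.04, against -0.05 over all probes, and 0.0% of all probes passed in this comparison, where 5397 had an unadjusted p under 0.05 and the lowest limma adjusted p was 0.21. H2-Oa, the alpha chain of the H2-DM inhibitor H2-O, had 1.62 (SE 1.11) and H2-Eb2 had 1.44 (SE 0.37). Crebbp, a coactivator, had 0.04 (SE 0.23), and March1 and March8, ligases that tag class II molecules for turnover, had -0.04 (SE 0.23) and -0.39 (SE 0.28). The 3 RFX subunits, named here for their role, had fitted differences of -0.32 (Rfx5, SE 0.44), -1.22 (Rfxap, SE 0.69) and 0.32 (Rfxank, SE 0.26). Rfx5 and Rfxank were measured on all 8 arrays, and Rfxap on 7, not in the E9.5 caudal duct array (-5.11). H2-Ea and Cd86, a costimulator, were measured on 0 arrays.

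The endosomal processing list had 10 of 11 genes tested, 5 higher and 5 lower, with a median of -0.09. Ctsb, a cathepsin, had 0.23 (SE 0.29) and Ctsz, another, 0.53 (SE 0.24), while Cst3, a cathepsin inhibitor, had -1.05 (SE 0.26). Ctss, the cathepsin that trims the invariant chain, was measured on 0 of 8 arrays. Of 15 class I genes tested 9 were higher and 6 lower, with a median of 0.06, and Tapbp, which loads class I molecules, had 1.26 (SE 0.40). The interferon list had 17 of 20 genes tested, 8 higher and 9 lower, with a median of -0.09. Ifi35, an interferon-induced gene, had 1.37 (SE 0.51), at least 1.88-fold since neither Wt1-GFP array measured it, and Stat2, a signal transducer, 1.14 (SE 0.53). Of 20 tested genes of the class II region and its flanks, which include 5 members, 13 were higher and 7 lower. Their median was 0.14. A fitted difference of at least 1 was found for 5 of the 20, against 10.1% of all probes tested. These 5 include H2-DMb1 and H2-DMb2, which had been chosen for high duct levels.

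**Figure D4:**
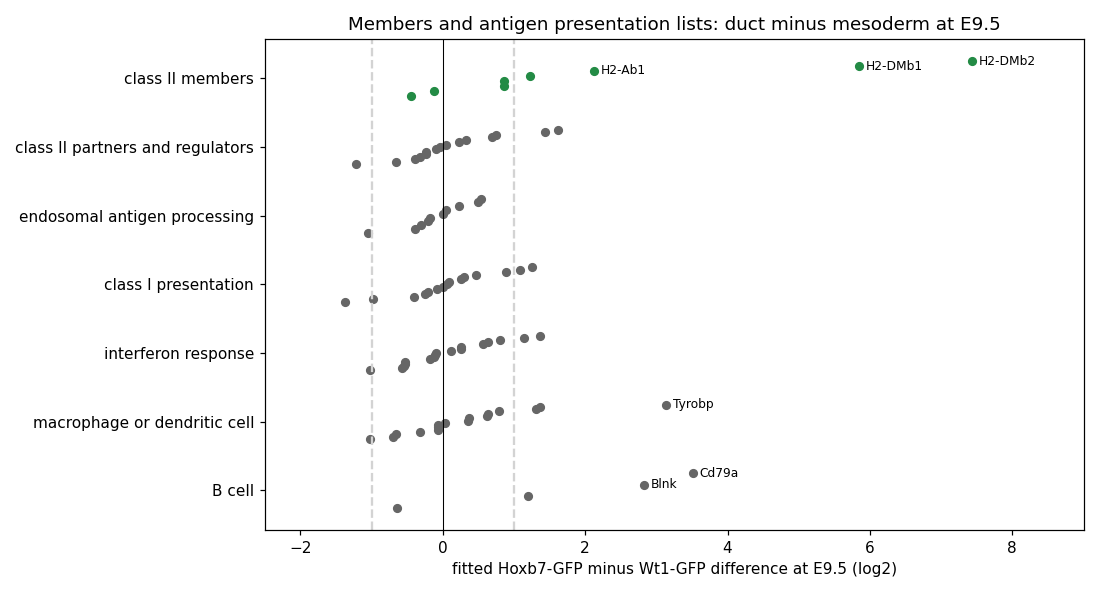
Fitted Hoxb7-GFP minus Wt1-GFP difference at E9.5 (log2, horizontal axis) of each tested class II probe (green, top row) and of each tested gene of 6 lists (grey, rows below). Dashed lines mark a 2-fold difference either way, and names are given for differences of at least 2. H2-DMb1 and H2-DMb2, at 5.84 and 7.43, lie to the right of every listed gene shown.

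Markers of the cells that normally carry class II molecules were examined on the same arrays. Of 20 macrophage and dendritic cell markers 16 were tested, and Spi1, Itgax, Lyz2 and C1qc were measured on 0 arrays. Their summed level was 7.88 to 8.25 in the E9.5 duct arrays, 8.02 to 8.12 at E10.5, 7.75 at E11.5 and 8.02 at E8.75, against 8.12 to 8.13 in the Wt1-GFP arrays. The bright probes of Itgam and Csf1r, which hardly varied, set most of that sum. Without them, a choice made after seeing the values, it was 1.53 to 1.69 at E9.5, 1.23 to 1.63 at E10.5, 1.16 at E11.5 and 1.34 at E8.75, against 1.11 to 1.53 in the Wt1-GFP arrays. Tyrobp had a fitted difference of 3.13 (SE 0.57) at E9.5, with neither Wt1-GFP array measured, and Aif1 had 1.37 (SE 0.91).

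In the E10.5 rostral and caudal arrays Tyrobp had -4.63 and -5.74, neither well above background. Fcer1g, the Fc receptor gamma chain, had -2.90 and -1.35 there, against -3.57 and -2.05 at E9.5. Laptm5, a lysosomal protein of blood cells, had -4.55 and -2.44 at E10.5, against -6.63 (not well above background) and -3.93 at E9.5. Of 6 B cell markers 4 were tested, and Ms4a1, which marks mature B cells, was measured on 0 arrays. Their summed level was -0.20 to 0.04 in the E9.5 duct arrays, against -1.27 to -0.62 in the Wt1-GFP arrays. Cd79a, a chain of the B cell receptor, had -2.28 in the E8.75 array and -1.43 and -0.89 in the E9.5 duct arrays, against -3.23 and -6.11 in the Wt1-GFP arrays. Blnk, an adaptor, had -3.04 and -2.85 in the E9.5 duct arrays, against -6.21 and -5.32 in the Wt1-GFP arrays. Of the thymic epithelial markers Psmb11 was measured on 0 arrays, and Foxn1 and Aire had differences of 0.13 (SE 0.23) and 0.08 (SE 0.31). The part of such cells in the H2-DMb1 and H2-DMb2 levels was not tested beyond these values.

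Median duct minus Wt1-GFP differences at E9.5 of the remaining lists were 3.53 for 9 nephric duct genes (8 higher, 1 lower), -3.90 for 5 intermediate mesoderm genes (0 higher, 5 lower), 1.96 for 9 endothelial genes (8 higher, 1 lower), 1.19 for 5 erythroid genes (3 higher, 2 lower), 2.01 for the 4 B cell genes (3 higher, 1 lower), 0.20 for the 16 macrophage and dendritic cell genes (9 higher, 7 lower) and 0.10 for 2 thymic epithelial genes (2 higher). The largest differences of the nephric duct genes were 6.70 (Wnt9b, SE 0.84) and 6.30 (Ret, SE 0.49), both with neither Wt1-GFP array measured.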

How the data were processed

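The 8 samples, 1 array each, were measured on 1-colour Agilent arrays of mouse probes. Per the labels' protocols, amplification by NuGEN WT-Ovation Pico started from 10 ng RNA, and the product was labelled with Cy3. Per the file headers, the deposited intensity comes from version 10.7.3.1 of Agilent's Feature Extraction and is a processed signal after background subtraction and detrending, and probe coordinates are on mm9. The authors' deposited log2 matrix served as an alternative. It follows the same signals scaled to the 75th percentile and centred per probe, as a comparison of the numbers showed, since no source used here states its scale.

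Outlier spots were left out and repeated spots averaged, which kept 55663 probes. Signals were divided by their array's 75th percentile (232.281 to 305.815 units) and taken to log2. The 45582 probes measured on at least 1 array entered a linear model in limma (version 3.58.1, R 4.3.3) with 5 group terms and a position term (0.5 rostral, -0.5 caudal), leaving 2 residual degrees of freedom. A probe passed at a Benjamini-Hochberg adjusted p of 0.05. A stage with a single array took its spread from the others, and the number of arrays limits the precision. The fit was tested on simulated data.

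Members, 12 gene lists (some genes stand in 2 lists), comparisons and alternatives were chosen with earlier results of these data known. The lists covered class II partners, endosomal processing, class I, interferon, the class II region, macrophages and dendritic cells, B cells, thymic epithelium, endothelium, erythroid cells, nephric duct and intermediate mesoderm, each with 1 probe a gene, the brightest. Named were all members, the 5 genes most similar to H2-DMb1 and to H2-DMb2, and a list's 3 brightest genes and 2 largest differences, of which the text gives some and a few are not reported here. Genes named outside this rule are said to be so or are markers named for their role. Sequences came from the probe table and from RefSeq promoters (GRCm38.p6). Promoters were aligned with Biopython 1.88. Alternatives changed the background correction, scaling, filter, floor, prior, position term, slide row, probe choice and arrays. Whether the H2-DMb1 and H2-DMb2 probes each bind the other gene's transcript was not tested, since transcript sequences were not used here.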

Additional observations from a re-analysis of the deposited data

How the results depend on the processing

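H2-DMb1 and H2-DMb2 were higher in E9.5 duct than in Wt1-GFP cells under every alternative that gave a value; neither was measured on all 8 arrays, so that filter gave none. The H2-DMb1 difference of 5.84 became 1.89 with normexp (offset 50), which adds a constant to dim signals, 6.09 with quantile normalization, 3.70 with dim spots at the floor and 5.23 with the slide row as a block. Leaving out 1 array gave 5.57 to 6.11. The H2-DMb2 difference of 7.43 became 4.67 with normexp and 5.32 with the slide row, and 5.65 to 9.22 without 1 array. Counts of probes that passed were 0 in all 6 comparisons. For duct against Wt1-GFP cells normexp gave 227, the intensity trend 827 and no position term 3. For E9.5 against E8.75 normexp gave 114 and the intensity trend 1, and for position by reporter the trend gave 1. Adjusted p of H2-DMb1 and H2-DMb2 from E8.75 to E9.5 ranged from 0.05 to 0.48 and from 0.052 to 0.55. Neither passed under any alternative, and the lowest of H2-DMb1, with the intensity trend, equals the threshold after rounding.

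Some small differences, none past the threshold, changed sign. Without 1 array, Cd74 ran from -0.34 to 2.92 (E8.75 to E9.5), -2.0 to 1.26 (E9.5 to E10.5), -0.63 to 0.13 (E10.5 to E11.5) and -1.20 to 0.72 (position). H2-DMb2 ran from -0.06 to 2.06 (E9.5 to E10.5), -1.68 to 0.44 (E10.5 to E11.5) and -1.51 to 0.38 (position), and H2-Eb1 from -0.63 to 0.54 and -0.29 to 0.88 over the same stage steps. Ciita ran from -0.11 to 0.20 (E9.5 to E10.5) and -0.13 to 0.05 (position), and H2-DMa from -0.44 to 0.43 (position). With the slide row as a block, E10.5 to E11.5 gave 0.44 for H2-DMb2 and -0.29 for H2-Eb1, and position gave 0.14 for Cd74. With normexp, H2-Eb1 gave 0.04 (E9.5 to E10.5) and -0.06 (E10.5 to E11.5), and position gave 0.09 for Cd74 and 0.05 for H2-DMa. With dim spots at the floor, position gave 0.19 for Cd74 and -0.23 for the second H2-Ab1 probe, and position by reporter gave -0.00 for H2-DMb1. Quantile normalization gave 0.05 for Ciita by position. The cause of these changes was not tested.

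The E8.75 comparison cannot be made without its 1 array, nor that of E11.5. The interaction of position with reporter could not be fitted with a slide row block or without an array of a split group. No paired analysis was possible because the labels carry no replicate numbers. Signals near background limit H2-Eb1, Cd74 and both H2-Ab1 probes.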
